A study of Hordeum vulgare with 12 samples.

Results

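MIR397, MIR398, MIR408 and MIR528 are the plant miRNA families best known for their link to copper. They were followed here in small RNA libraries of barley (Hordeum vulgare) line Rolap. A sequence was taken as a member when every miRBase entry it matched carried 1 of these 4 family numbers. The rule found 57 of 3812 miRBase-matched sequences in root and 132 of 4430 in shoot, or 150 of 6279 distinct sequences over both organs. Another 2 sequences, which named a copper family beside a different family, were left out. The joined set holds 68 sequences of MIR397, 17 of MIR398, 44 of MIR408 and 21 of MIR528.

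Plants of all groups grew in the same soil and sand mixture with 8 mg P per kg of soil, and were harvested at day 23. Low-Pi pots received no further phosphorus, and control pots received 60 mg P per kg as KH2PO4, so potassium was added with the phosphate. The 12 libraries form 4 groups of 3, which are low-Pi root, control root, low-Pi shoot and control shoot. Each library comes from a pot of 3 plants. Low-Pi libraries carry the replicate numbers 4, 5 and 6, and control libraries 16, 17 and 18. The 3 low-Pi root libraries held 14999744 to 17614581 reads each, and the 3 control root libraries 7470998 to 11434616. The 6 shoot libraries held 10565625 to 14644436. The tables hold small RNAs only, so the organ labels were not checked against marker genes, and copper was neither varied nor measured in the deposited tables.

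In plants, miR397 directs the cleavage of laccase mRNAs, whose products are copper oxidases that act in lignin formation. In Arabidopsis, miR398 targets copper/zinc superoxide dismutases and their copper chaperone, and miR408 targets plantacyanin and laccases. miR528 belongs to monocots, where it targets ascorbate oxidase and other copper proteins in rice and maize. These families are known to accumulate when copper is scarce, which lowers the synthesis of dispensable copper proteins.

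The sequences on which the results turn are given first, as deposited in DNA letters from 5′ to 3′. Capitals mark bases 2 to 8, called the seed here, and target pairing was not tested. Each is named by its family, its length and the annotated mature arm it matched in miRBase.
MIR397 21 nt, mature 5′ arm: tTGAGTGCagcgttgatgaac
MIR398 21 nt, mature 3′ arm: tGTGTTCTcaggtcgcccccg
MIR408 20 nt, mature 3′ arm: tGCACTGCctcttccctggc
MIR408 21 nt, mature 3′ arm: cTGCACTGcctcttccctggc
MIR408 21 nt, mature 5′ arm: cAGGGATGgagcagagcaagg
MIR528 21 nt, mature 3′ arm: cCTGTGCCtgcctcttccatt
MIR528 21 nt, mature 5′ arm: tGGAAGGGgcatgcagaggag
MIR528 20 nt, mature 5′ arm: gGAAGGGGcatgcagaggag

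Among all 150 members, 0 seeds were found in more than 1 family. The MIR408 and MIR528 3′ arms nevertheless share a run of 11 bases, CTGCCTCTTCC, which begins at base 5 of the 20-nt MIR408 sequence and at base 8 of the MIR528 sequence. Barley entries took 65.3% of MIR397 reads, whereas all reads of MIR398, MIR408 and MIR528 matched entries of other species. These matches name a miRBase entry and not a barley locus, so loci that give the same read are counted together.

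All 4 families were far less abundant in root than in shoot, where MIR397 and MIR408 made up nearly all of their reads. Levels are given as RPM, reads per 1000000 reads of the library, with the standard deviation (SD) over 3 libraries. In low-Pi plants the 4 families summed to 7.02 ± 2.17 RPM in root and 143 ± 75.2 RPM in shoot. In control plants they summed to 14.2 ± 4.27 RPM in root and 101 ± 23.8 RPM in shoot. They formed 0.0416% to 0.106% of all miRBase-matched reads in the 6 root libraries and 0.140% to 0.425% in the 6 shoot libraries, with no overlap between organs.

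**Figure D1:**
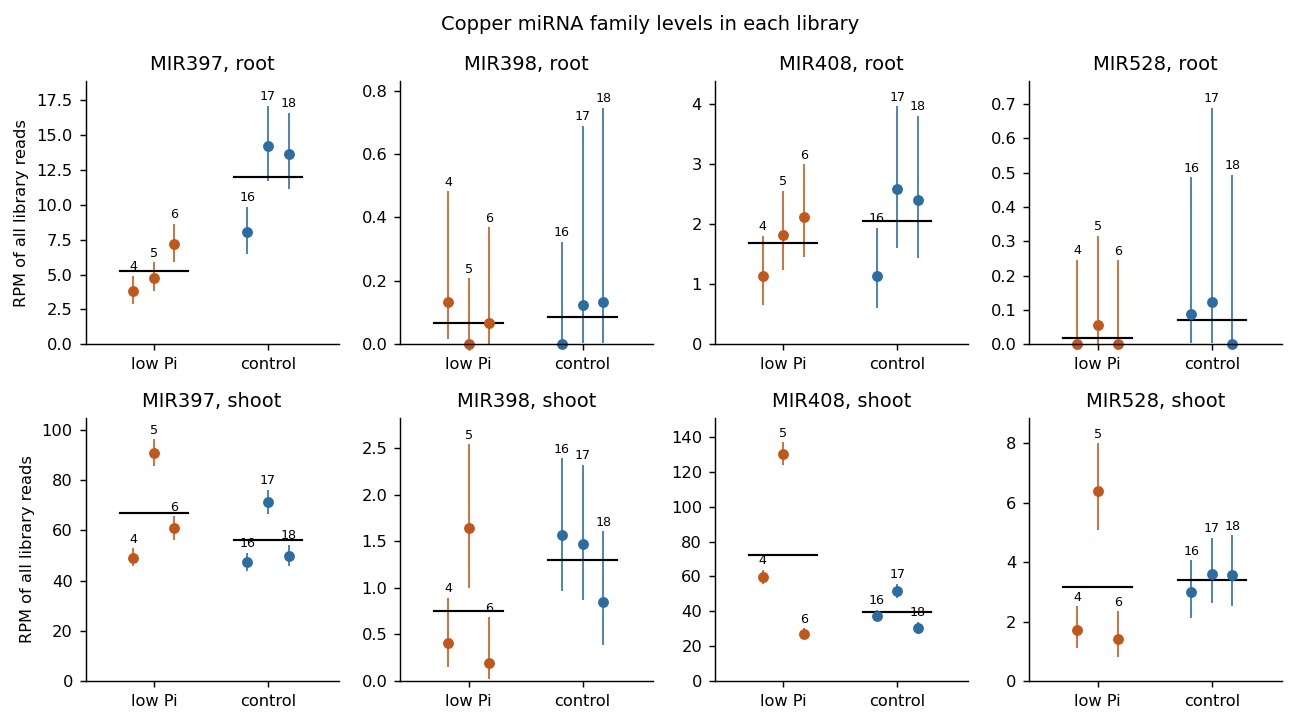
Level of each copper miRNA family in RPM (y axis) in every library, with root in the upper row and shoot in the lower row, and low Pi left of control. Points are libraries labelled by replicate number, bars are exact Poisson intervals of 95% for counting error, and horizontal lines are group means. MIR397 in root lies between 3.80 and 7.16 RPM under low Pi and between 8.05 and 14.2 RPM in control, and replicate 5 is the highest low-Pi shoot library for all 4 families.

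Summed over all its matches, MIR397 was the most abundant of the 4 families in root and the one called there on library totals. It had 3.80, 4.77 and 7.16 RPM in low-Pi root libraries 4, 5 and 6, against 8.05, 14.2 and 13.6 RPM in control root libraries 16, 17 and 18. Every low-Pi library was below every control library, and how many other families were so separated is not given here. The change was a log2 fold change of -1.18 ± 0.354 (SE) with an adjusted p of 0.00527, from edgeR's quasi-likelihood test over 53 families. Precursor-only matches, which are not the annotated mature miR397, gave most reads of the family (65.6% over the 12 libraries). Arm-matched reads of MIR397 outnumbered those of MIR408 in every root library but low-Pi library 4. There MIR397 had 12 reads of the 5′ arm and 1 of the 3′ arm, against 1 and 15 for MIR408. With precursor-only matches left out the MIR397 change was -1.01 (edgeR adjusted p = 0.0410). As a bulk measurement it cannot tell fewer cells of a type from less RNA per cell. MIR397 was 1 of 2 copper families tested in root, and 16 of the 53 families tested (30.2%) were called lower. The median of all 53 was itself -0.42, against which MIR397 stood at -0.76. Low-Pi root libraries also held a smaller share of miRBase-matched reads, 0.940% to 1.22% against 1.615% to 1.91% in control root libraries. The part of this share in the MIR397 change was not tested. Scaled with TMM factors, a normalisation that sets the bulk of families equal, the MIR397 change was -0.92 (adjusted p = 0.0726) and families called higher and lower numbered 4 and 4, against 4 and 16 on library totals. On miRBase-matched reads it was -0.56 (adjusted p = 0.299), with 11 families called higher and 4 lower.

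**Figure D2:**
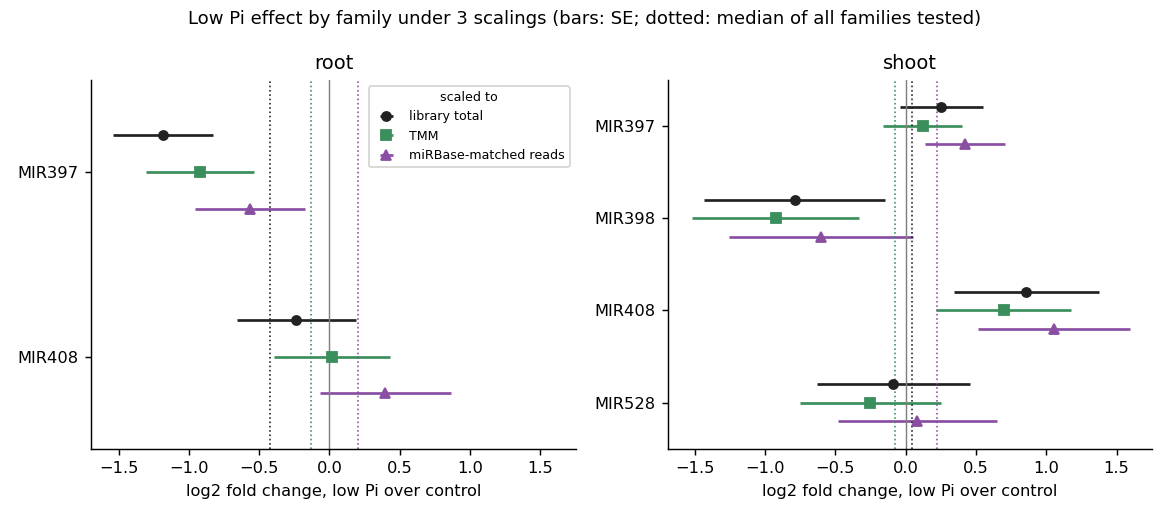
Low-Pi over control log2 fold change (x axis) of each copper family tested (rows), in root on the left and shoot on the right, with SE bars. Colours and symbols give 3 scalings, and dotted lines give the median of all families tested under each. In root MIR397 lies at -1.18, -0.92 and -0.56 while the median of all families lies at -0.42, -0.13 and 0.20. A change of scaling shifts all families nearly alike, so distances to the median stay nearly constant by construction. They are -0.79 to -0.76 for MIR397 and 0.15 to 0.19 for MIR408. Of these 3 scalings, MIR397 was called only on library totals.

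MIR408, the plantacyanin and laccase regulator, gave no such difference in root. It had 1.13, 1.82 and 2.12 RPM in low-Pi root libraries 4, 5 and 6, against 1.14, 2.60 and 2.41 RPM in control root libraries 16, 17 and 18. The groups overlapped, and the log2 fold change was -0.23 ± 0.423 (adjusted p = 0.627), and it was 0.019 with TMM factors and 0.40 on miRBase-matched reads. These values rest on 81 reads over the low-Pi and 52 over the control root libraries.

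The balance of MIR397 and MIR408 in root does not depend on how libraries are scaled. MIR397 made up 75.0%, 71.8% and 76.6% of the reads of the 4 families in low-Pi root libraries 4, 5 and 6, against 86.8%, 83.3% and 84.3% in control root libraries 16, 17 and 18. For MIR408 the shares were 22.4% to 27.4% in low-Pi and 12.3% to 15.2% in control libraries. Neither share overlapped between the groups. This comparison was chosen after the values were seen and was not tested.

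MIR398, which targets copper/zinc superoxide dismutases in Arabidopsis, and MIR528 were near or below the detection floor in root. MIR398 had 2, 0 and 1 reads in low-Pi root libraries 4, 5 and 6, and 0, 1 and 1 reads in control root libraries 16, 17 and 18. MIR528 had 0, 1 and 0 reads in low-Pi root, against 1, 1 and 0 reads in control root, in the same order of libraries. Since 3 reads, taken as the floor, correspond to 0.170 to 0.402 RPM in root libraries, no low-Pi difference was detectable in root for either family at this depth. For 0 reads the exact interval of 95% reached up to 0.494 RPM, for MIR528 in control root library 18.

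In shoot none of the 4 families passed the test, and the low-Pi libraries disagreed with each other. MIR397 had 49.2, 90.8 and 60.8 RPM in low-Pi shoot libraries 4, 5 and 6, against 47.3, 71.3 and 49.8 RPM in control shoot libraries 16, 17 and 18. The log2 fold change was 0.25 ± 0.297 (adjusted p = 0.677). MIR408 had 59.7, 130 and 26.9 RPM in low-Pi shoot, against 37.5, 51.7 and 30.4 RPM in control shoot. The low-Pi libraries of MIR408 thus lay both above and below all control libraries. Its log2 fold change was 0.86 ± 0.516 (adjusted p = 0.406).

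The other families of the shoot were much scarcer. MIR398 had 0.410, 1.64 and 0.189 RPM in low-Pi shoot libraries 4, 5 and 6, from 6, 20 and 2 reads, against 1.56, 1.47 and 0.846 RPM in control shoot libraries 16, 17 and 18, from 21, 18 and 9 reads. Its log2 fold change was -0.79 ± 0.644 (adjusted p = 0.648). MIR528 had 1.71, 6.41 and 1.42 RPM in low-Pi shoot, against 2.98, 3.59 and 3.57 RPM in control shoot. Low-Pi libraries 4 and 6 were below, and library 5 above, every control library for MIR528, and the log2 fold change was -0.09 ± 0.545 (adjusted p = 0.962). With edgeR, 0 of the 4 families were called in shoot, beside 3 of 65 families tested (4.62%), and 0 of the 4 had an unadjusted p under 0.05. DESeq2, another count test, gave 11 calls among all families and 0 among the 4.

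Low-Pi shoot library 5 was the highest of its group for all 4 families, and library 6 was the lowest for MIR398, MIR408 and MIR528. The highest library exceeded the lowest by a factor of 8.68 for MIR398, which rests on 20 against 2 reads, 4.85 for MIR408 and 4.52 for MIR528. Among the 57 families with at least 10 reads in each low-Pi shoot library, the median factor was 1.52, and MIR408 and MIR528 ranked 1 and 2. MIR398 had too few reads to be among them. MIR397 ranked 20 of 57 with a factor of 1.85. In control shoot the factors were 1.85 for MIR398, 1.70 for MIR408, 1.21 for MIR528 and 1.51 for MIR397. The median was 1.32 over 59 families chosen by the same minimum, which MIR398 missed with 9 reads in library 18. Library 5 was the highest low-Pi shoot library in 20 of the 57 families (35.1%), and its total of 12168277 reads lay between those of libraries 4 and 6.

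**Figure D3:**
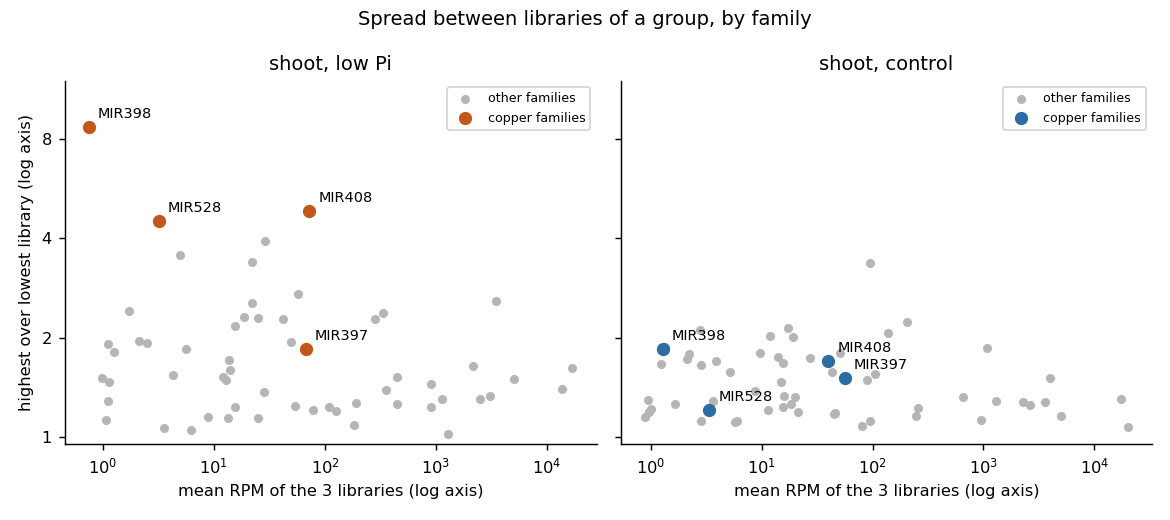
Ratio of the highest to the lowest library of a group (y axis, log) against mean RPM (x axis, log) for each family in shoot, low Pi on the left and control on the right. Grey points are other families with at least 10 reads in each library, and coloured points are the 4 copper families. MIR398, MIR408 and MIR528 lie at 8.68, 4.85 and 4.52 under low Pi. The medians of all families with at least 10 reads in each library are 1.52 under low Pi and 1.32 in control. MIR398, with 2 reads in low-Pi library 6 and 9 in control library 18, is not among those families.

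Leaving out single libraries moved the shoot values. Without low-Pi library 5 the log2 fold change was -0.030 for MIR397, 0.12 for MIR408, -2.03 for MIR398 and -1.10 for MIR528. Without low-Pi library 6 it was 1.25 for MIR408 and 0.24 for MIR528. No adjusted p fell below 0.0589 in any shoot fit that left out 1 library.

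Set against the library total, each family was lower in root than in shoot. MIR397 was lower in root than in shoot by a log2 fold change of -3.67 ± 0.359 in low-Pi plants (adjusted p = 2.06e-09) and of -2.23 ± 0.339 in control plants (adjusted p = 2.82e-06). MIR408 was lower in root by -5.41 ± 0.509 in low-Pi plants (adjusted p = 1.18e-09) and by -4.31 ± 0.501 in control plants (adjusted p = 7.01e-08). All root libraries lay below all shoot libraries for both families, and how many other families were so separated is not given here. For the scarce families the root group holds 1 to 3 reads, so pooled read ratios with exact intervals are given. Root over shoot was 0.0840 (0.0163 to 0.272) for MIR398 and 0.00664 (0.000167 to 0.0377) for MIR528 in low-Pi plants. In control plants it was 0.0560 (0.00660 to 0.214) for MIR398 and 0.0220 (0.00264 to 0.0814) for MIR528. MIR398 and MIR528 also passed the edgeR test in both conditions, with the largest adjusted p being 0.00121. Both met its low-count filter only through the shoot libraries, so these calls add no support to the read ratios.

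The direction of the organ difference was shared by most miRNAs. All 4 copper families were called lower in root, beside 58 of 81 families tested (71.6%) in low-Pi plants and 54 of 81 (66.7%) in control plants. MIR398 and MIR528 were among the 81 only through their shoot reads. The filter needed enough reads in 1 organ only, and 53 families could be tested in root alone and 65 in shoot alone. miRBase-matched reads made up 0.940% to 1.91% of root libraries and 5.01% to 6.39% of shoot libraries, and the median family differed by -2.63 in low-Pi and -1.96 in control plants. Relative to those medians, MIR528 stood at -4.06 and -3.38, MIR408 at -2.78 and -2.35, MIR398 at -0.75 and -1.99, and MIR397 at -1.05 and -0.28, each value for low-Pi plants before that for control plants. The values of MIR528 and MIR398 rest on 1 to 3 root reads in each condition, so their distances carry little weight. Under TMM scaling 32 families were called higher and 21 lower in low-Pi root, against 20 and 58 on library totals, and 29 higher and 20 lower in control root, against 20 and 54. On that scale MIR408 was still called lower in root. MIR528 was called too, but it had 1 root read in low-Pi and 2 in control plants, so its call adds no support. MIR397 lost both calls, at -0.72 (adjusted p = 0.0789) in low-Pi and -0.31 (adjusted p = 0.456) in control plants. MIR398 also lost both calls, at -0.59 (adjusted p = 0.643) in low-Pi and -2.11 (adjusted p = 0.105) in control plants.

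The effect of low Pi on MIR397 also differed between organs. The root effect minus the shoot effect was a log2 difference of -1.44 ± 0.465 (adjusted p = 0.0390, edgeR interaction over 12 libraries). The other copper families did not pass, with -1.10 ± 0.657 for MIR408 (adjusted p = 0.345), -1.35 ± 1.60 for MIR528 (adjusted p = 0.666) and 0.58 ± 1.81 for MIR398 (adjusted p = 0.874). MIR397 was 1 of 4 copper families called lower in this comparison, beside 13 of 81 families (16.0%), and the median of all families was -0.67. With TMM factors the MIR397 difference was -0.41 (adjusted p = 0.701), with 3 families called higher and 1 lower against 0 and 13. The call was also lost without any 1 of 7 libraries, which were low-Pi root 4 and 5, control root 17 and 18, low-Pi shoot 5 and control shoot 16 and 18, with adjusted p from 0.0735 to 0.148.

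The families differed in how their reads were matched. Over the 12 libraries 33.6% of the 5062 MIR397 reads matched the annotated mature 5′ arm and 0.810% the 3′ arm, while 65.6% matched hairpin precursors only. Reads of 24 nt made up 47.2% of MIR397 reads, and reads of 21 nt 46.3%. In MIR408 92.9% of 4335 reads matched the 3′ arm, and in MIR398 80.2% of 81 reads did.

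Among single sequences matched to an annotated arm, 2 could be tested in root. The MIR397 5′-arm sequence of 21 nt had 0.800, 2.38 and 2.79 RPM in low-Pi root libraries 4, 5 and 6, against 3.06, 5.56 and 3.75 RPM in control root libraries 16, 17 and 18. Every low-Pi value was below every control value, and how many other sequences were so separated is not given here. The log2 fold change of -1.03 ± 0.437 did not pass after adjustment over 285 sequences (edgeR adjusted p = 0.0750). The median of all 285 was -0.66, and with TMM factors the MIR397 5′-arm sequence was at -0.36 (adjusted p = 0.616). The 20-nt MIR408 sequence was at -0.27 ± 0.475 in root (adjusted p = 0.682), with a sign that turned to 0.39 under TMM factors. With edgeR 0 of these 2 sequences were called, beside 88 of 285 (30.9%) called lower, and 1 of the 2, that of MIR397, had an unadjusted p under 0.05. DESeq2 also called 0 of the 2.

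The arm make-up of MIR397 varied between low-Pi root pots. Reads of the 5′ arm were 21.1%, 51.2% and 40.7% of MIR397 reads in low-Pi root libraries 4, 5 and 6, against 38.0%, 39.1% and 27.5% in control root libraries 16, 17 and 18. The groups overlapped, with means of 37.7% ± 15.3 under low Pi and 34.9% ± 6.45 for control roots (SD, n = 3, exact permutation p = 0.80, two-sided). The shoot means of this share were 34.5% ± 6.45 with low Pi, against 33.4% ± 4.20 for control plants (n = 3, exact permutation p = 0.80). Arm, 5′ end and length shares gave 9 tests in all, for MIR397 in both organs and MIR408 in shoot. None passed this exact permutation test, each with an adjusted p of 1.0, and 3 against 3 libraries cannot go below an exact p of 0.10.

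**Figure D4:**
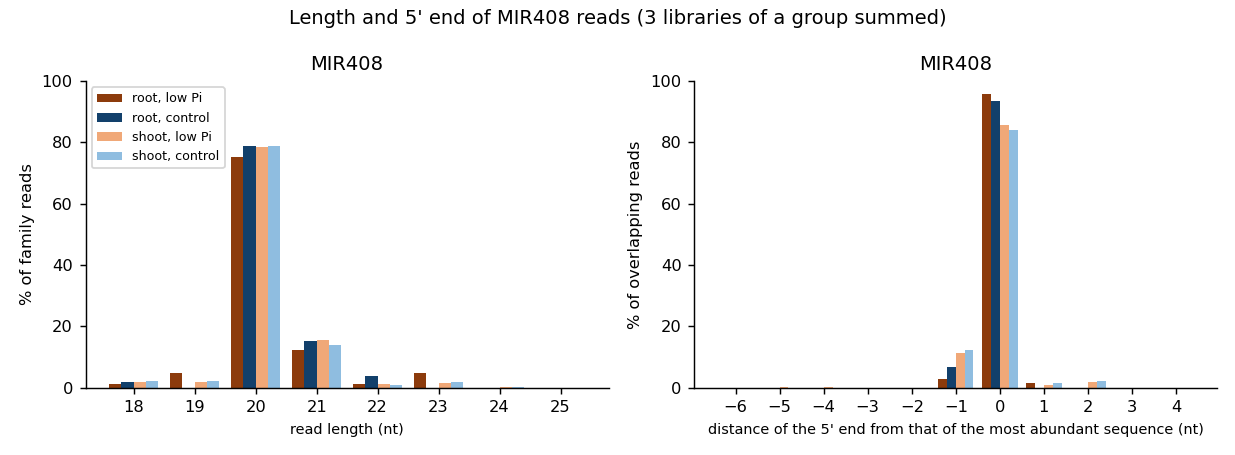
Share of MIR408 reads (y axis, %) by read length (left) and by distance of the 5′ end from that of the most abundant MIR408 sequence, in nt (right). Bars are the 4 groups, each with 3 libraries summed, and the right panel covers reads that overlap the most abundant sequence. Reads of 20 nt and the shared 5′ end lead in each group, and the next most frequent start in shoot lies 1 base earlier.

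MIR408 was led by the same sequence in each group. Its 20-nt 3′-arm sequence held 75.3% of family reads in low-Pi root, 76.9% in control root, 77.7% in low-Pi shoot and 78.1% in control shoot. The form that starts 1 base earlier held 10.3% in low-Pi shoot and 11.3% in control shoot. The 20-nt sequence had 47.7, 101 and 19.1 RPM in low-Pi shoot libraries 4, 5 and 6, against 29.8, 41.1 and 22.3 RPM in control shoot libraries 16, 17 and 18, with a log2 fold change of 0.85 ± 0.476 (adjusted p = 0.330). Without low-Pi shoot library 6 it was 1.26 (adjusted p = 0.0376), and without library 5 it was 0.11.

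The opposite arm of the MIR408 hairpin was also highest in low-Pi shoot library 5 and lowest in library 6 of the low-Pi libraries, whereas among control libraries it was highest in 18, where the 20-nt sequence was lowest. Its leading 5′-arm sequence had 1.16, 6.66 and 0.284 RPM in low-Pi shoot libraries 4, 5 and 6, from 17, 81 and 3 reads, against 0.298, 0.490 and 0.940 RPM in control shoot libraries 16, 17 and 18. The log2 fold change was 2.25 ± 0.886 (adjusted p = 0.147), and it was 0.42 without library 5 and 2.76 (adjusted p = 0.0335) without library 6. When no low-count filter was used, its adjusted p was 0.000705. Reads of the whole 5′ arm made up 3.72%, 7.63% and 1.49% of arm-matched MIR408 reads in low-Pi shoot, against 1.23%, 2.42% and 6.01% in control shoot. With edgeR, 0 of the 6 arm-matched member sequences tested in shoot were called, beside 51 of 484 sequences in all (10.5%), and 1 of the 6, the MIR408 5′-arm sequence, had an unadjusted p under 0.05. DESeq2 called 60 sequences in all and 0 of the 6.

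MIR528 reads came from both arms. Its 5′ arm had 12, 40 and 10 reads in low-Pi shoot libraries 4, 5 and 6, against 26, 27 and 16 reads in control shoot libraries 16, 17 and 18. Its 3′ arm had 7, 29 and 5 reads in low-Pi shoot, against 6, 8 and 9 reads in control shoot. The 5′ arm thus made up 63.2%, 58.0% and 66.7% of arm-matched reads in low-Pi shoot and 81.2%, 77.1% and 64.0% in control shoot, and the groups overlapped. The MIR528 shares were not tested, since 1 library held 15 reads, under the minimum of 20.

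**Figure D5:**
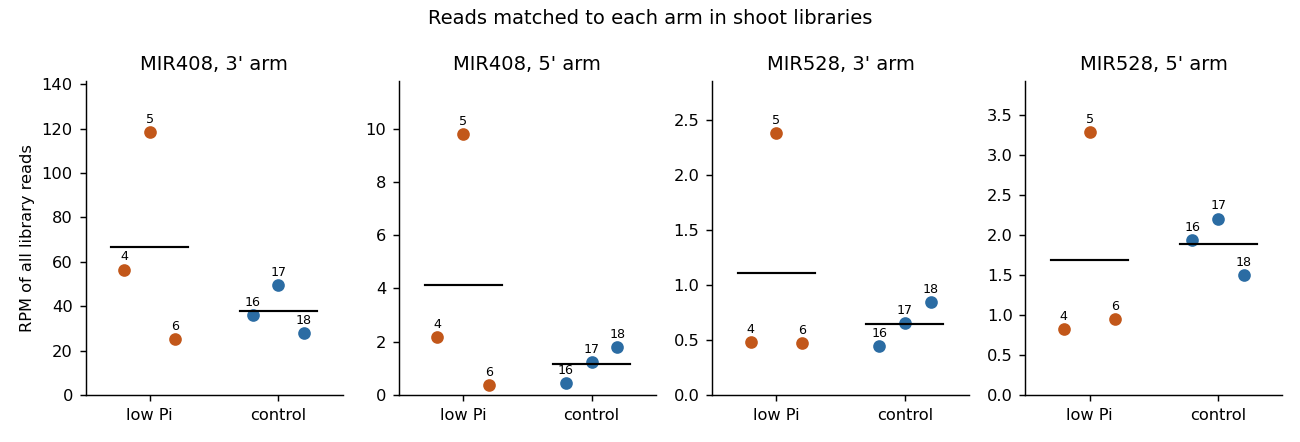
RPM (y axis) of reads matched to the 3′ and 5′ arms of MIR408 and MIR528 in each shoot library, low Pi left of control. Points are libraries labelled by replicate number and horizontal lines are group means. Low-Pi library 5 is the highest point in all 4 panels, at 118 and 9.78 RPM for the 3′ and 5′ arms of MIR408, and at 2.38 and 3.29 RPM for those of MIR528.

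Other nutrient-linked miRNAs were tested in the same libraries. Of a list of 8 families tied to phosphate, sulfate or nitrogen supply, 5 could be tested in root and 6 in shoot. MIR399 and MIR827, the phosphate starvation families, rose in both organs. MIR399 changed by 1.81 ± 0.370 in root (adjusted p = 1.67e-05) and 4.19 ± 0.325 in shoot (adjusted p = 3.42e-05), and MIR827 by 1.68 ± 0.314 in root (adjusted p = 3.67e-06) and 3.31 ± 0.213 in shoot (adjusted p = 1.57e-05). MIR393, which targets auxin receptors and responds to nitrate in Arabidopsis, was called lower in root (log2 -1.43 ± 0.461, edgeR adjusted p = 0.0105). That is 1 of the 5 listed families tested in root, where 16 of 53 families (30.2%) were called lower. MIR393 was among the families with at least 10 reads in each control root library (mean 1.93 RPM), but not in each low-Pi root library. It may thus have met the low-count filter only through control root, so its call adds no support. The calls of MIR399, MIR827 and MIR393 were made on library totals, and their values under other scalings are not given here. The remaining families tested did not pass in either organ. MIR857 of Arabidopsis and MIR1444 of poplar, both also linked to copper proteins, had 0 reads in all 12 libraries, where the floor of 3 reads lies at 0.170 to 0.402 RPM.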

How the data were processed

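Small RNAs were sequenced in 12 libraries, and the authors trimmed the reads in CLC Genomics Workbench (version not given in the sources used here) at a quality limit of 0.02, kept reads of 18 to 25 nt and matched them to miRBase release 22 without mismatches. Deposited counts are reads per distinct sequence, and the authors' RPM is that count per 1000000 library reads. Deposited p-values and fold changes of the authors, and 24 columns that repeat the counts, were not used.

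Library totals were recovered as count divided by RPM. Counts were summed by family and tested with edgeR 4.0.16 (R 4.3.3), glmQLFit and glmQLFTest, with the total as library size, filterByExpr at a minimum count of 10 and Benjamini-Hochberg adjustment over all features at 0.05. Low Pi was tested within each organ, and organs and the interaction over 12 libraries without a replicate block. A sequence listed for 1 organ only counted as 0 in the other. Shares were compared with exact permutation tests (SciPy 1.17.1), and sequences were placed by exact overlaps of at least 14 nt. DESeq2 1.42.0, other scalings, filters and left-out libraries were alternatives. The code was tested on simulated data. Intervals of 95% and floors of 3 reads cover counting error only, because PCR copies are not independent molecules.

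Single sequences were named when matched to an annotated arm and among the 3 most abundant of a family, the most abundant in an organ, or called, and other families by likeness (2 for each) or from the copper and nutrient lists. Members and lists were chosen with earlier results of these data known. Some sequences are not reported here.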

Additional observations from a re-analysis of the deposited data

Results flagged for a closer look

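The low-Pi effect on MIR397 differed between the organs in the interaction test, by -1.44 ± 0.465 on the log2 scale (root effect minus shoot effect, edgeR adjusted p = 0.0390). It was -1.18 in root and 0.25 in shoot. It was -0.41 with TMM factors, -0.59 with equal library sizes, -0.82 with DESeq2 size factors and -0.99 on miRBase-matched reads, and passed the test under none of these 4. Groups of 3 libraries were too small to search for single outlying libraries by rule.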

How the results depend on the processing

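Of the recomputed fold changes of families and shares, 169 kept direction and call under other settings, 6 turned and 20 lost the call, and with 1 library left out 209 kept both, 18 turned and 7 lost the call. In root, MIR397 was at -0.92 with TMM factors, -0.56 on miRBase-matched reads, -0.31 with equal library sizes and -0.87 for reads of 20 to 22 nt, where it lost its call, and MIR408 turned to 0.019, 0.40 and 0.64 under the first 3 of these and to 0.13 with DESeq2 size factors. In shoot, MIR528 turned to 0.083 on miRBase-matched reads and to 0.14 without precursor-only matches. The root against shoot call was lost in low-Pi plants for MIR397 with TMM (-0.72) and for MIR398 with TMM (-0.59), miRBase-matched reads (-1.27) and DESeq2 factors (-0.98, adjusted p not given). In control plants it was lost under the same 3 settings for MIR397 (-0.31, -0.41, -0.19) and MIR398 (-2.11, -2.24, -1.98). The MIR397 interaction lost its call at -0.41 (TMM), -0.99 (miRBase-matched reads), -0.59 (equal sizes), -0.82 (DESeq2 factors), -1.28 (no precursor-only matches) and -1.11 (20 to 22 nt). In root, TMM and DESeq2 factors turned the 20-nt MIR408 sequence to 0.39 and 0.36. The causes were not tested.

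With 1 library left out, ranges were -0.030 to 0.46 for MIR397 and -1.10 to 0.24 for MIR528 in shoot, and -1.73 to -1.15 for MIR397 and -0.27 to 1.81 for MIR398 in the interaction. For low-Pi minus control shares, in percentage points, MIR397 gave -3.98 to 11.1 (5′ arm, root), -2.63 to 3.38 (5′ arm, shoot), -17.8 to 0.50 (5′ end, root), -2.002 to 3.43 (5′ end, shoot) and -1.64 to 3.57 (length, shoot). MIR408 in shoot gave -0.61 to 2.44 (5′ arm), -2.74 to 0.56 (5′ end) and -3.15 to 1.36 (length).

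Families called overall numbered 20 in root but 8 with TMM and 13 without low-Pi library 6 or without control library 18, and 3 in shoot but 6 to 11 under 5 other settings and 6 without low-Pi library 6. Organ calls numbered 78 and 74 but 50 and 48 without precursor-only matches, and 49, 49 and 47 in control plants with TMM, miRBase-matched reads and DESeq2 factors. Interaction calls numbered 13 but 4 under the 3 other scalings of edgeR and 8 with reads of 20 to 22 nt, without low-Pi root library 4 or without control shoot library 18, and 7 without low-Pi root library 5. Sequence calls numbered 103 in root but 46 with TMM, 44 with DESeq2 factors and 67 without low-Pi library 4, and 51 in shoot but 33 without low-Pi library 5 and 29 without control library 16.

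With the replicate number as a replicate block the MIR397 organ differences were -3.67 in low-Pi and -2.25 in control plants and the interaction -1.42 (adjusted p = 0.0322), and no call of a copper family changed. Same-numbered root and shoot libraries correlated between -0.351 and 0.448 in their deviations from group means, which cannot settle whether they share a pot. The labels do not say, and the shared numbers were not taken as pairs in the main tests. Depth limits MIR398 and MIR528 in root, where 3 and 1 reads (low Pi) and 2 and 2 reads (control) were counted.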

Other observations

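The families whose levels ran most like those of the copper families over the 12 libraries were found by the root mean square difference of log2 levels, each centred on its own mean. MIR9662 and MIR5052 were closest to MIR397 (0.462 and 0.513), MIR5084 and MIR164 to MIR398 (0.476 and 0.529), MIR6201 and MIR5368 to MIR408 (0.419 and 0.436), and MIR5052 and MIR156 to MIR528 (0.442 and 0.451). The median over all families compared was 0.916, 1.28, 1.37 and 0.935 for MIR397, MIR398, MIR408 and MIR528 in that order. The organ difference is part of this likeness, since each of the 12 libraries is of 1 organ.

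Among MIR408 members, 4 sequences with 7 reads in all consisted almost wholly of repeats of 2 bases and matched soybean or Arabidopsis lyrata hairpins as precursors only. The deposited sequences without a miRBase match, 1796 in root and 199 in shoot, are only those past the authors' adjusted threshold for low Pi, so they are no search of all unmatched reads, and of these 0 came within 2 mismatches of a named copper miRNA sequence over at least 16 nt. MIR2111 and MIR778, phosphate-linked in Arabidopsis, had 0 reads.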
